A study of Mus musculus with 4 samples.

Results

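The axon guidance ligands and receptors described here are the semaphorins with their plexin and neuropilin receptors, the Slits and Robos, the netrins with Dcc and the Unc5 receptors, the ephrins with the Eph receptors, and the CRMP proteins. Members were chosen by gene symbol, as probes whose platform annotation gives a single symbol of one of these families and which had a value on at least 3 arrays. This gave 42 probes for 41 genes, out of 5828 such probes and 5140 named genes in all. Of 45 probes with a matching symbol, those of Epha1, Ephb3 and Ntn4 had no value on any array. The 42 members all had a value on each of the 4 arrays. They comprise 19 ligands, 17 receptors and 5 CRMP genes, and Ephb4 is the only gene with more than 1 probe.

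The samples were total RNA of mouse neocortex on a C57BL/6 background at embryonic day 16. On 4 arrays with a dye for each RNA, null mutants, whose brain is labelled as synaptically silent, were compared with a shared pool of 4 control replicates, for which the labels give no mutation. Null RNA carried Cy3 on replicate 1 and Cy5 on replicates 2, 3 and 4. For replicate 1 the label of the null tissue reads day 14, but its title and characteristics read day 16.

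Each value is a log ratio of the 2 channels, taken as log2, so that 1 in size is a 2-fold difference. The sources used here do not give the numerator of the ratio. Signs are therefore given as deposited, and none says whether the null had more or less of an RNA. Replicates 2 to 4 run the same way whichever channel is the numerator, and their mean was tested against 0 for every probe with limma. Dye and genotype cannot be told apart on these 3 arrays. Replicate 1 is given beside them as deposited, and its sign relative to replicates 2 to 4 would turn if the ratio was fixed by dye, in either direction, and not by genotype. All arrays share 1 pool, so the test leaves out the spread between controls. Fewer cells of a type and less RNA per cell cannot be told apart in such tissue RNA.

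Growth cones steer by cues that attract or repel them. Semaphorins signal through plexins, the secreted ones with neuropilins as co-receptors, and CRMP proteins relay semaphorin signals to the cytoskeleton inside the cell. Slits repel through Robo receptors. Netrin attracts through Dcc and repels when Unc5 receptors take part. Ephrins and Eph receptors signal in both directions between touching cells. In the embryonic neocortex these families guide corticofugal, callosal and thalamocortical axons, and several also act on migrating neurons and on vessels.

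Slit2, Sema5a and Unc5c had the largest positive mean log ratios among the members, and Efnb3 the largest negative one. On replicates 2 to 4 the mean log2 ratio was 0.86 ± 0.16 for Slit2, 0.93 ± 0.37 for Sema5a, 0.78 ± 0.35 for Unc5c and -0.63 ± 0.54 for Efnb3 (SD, n = 3 each). None of the 42 probes of the members passed an adjusted p of 0.05 with limma, and the share of all 5720 probes that did was 0%. At an unadjusted p under 0.05 limma listed 6 members, or 14.3% of their probes, namely Sema5a, Slit2, Unc5c, Ntn3, Epha5 and Efnb3. The share over all probes was 9.67%. Of the 6, 5 were positive, which is 11.9% of members against 5.61% of all probes, and 1 was negative, 2.38% of members against 4.06% of all probes. No p was computed for these shares.

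For Slit2, Sema5a and Unc5c, which had an unadjusted p under 0.01 and a positive ratio on each of replicates 2 to 4, the 250 bases before the annotated start are shown, as the promoter context of the largest positive ratios among the members. The sequences are from RefSeq on GRCm38.p6 and run 5′ to 3′ on the strand of the gene. Slit2 lies on the plus strand at chr5:47982905-47983154, Sema5a on the plus strand at chr15:32244563-32244812 and Unc5c on the plus strand at chr3:141465314-141465563. Capitals mark the TATA box letters TATAAA, the GC box letters GGGCGG and the core of the cyclic AMP response element, TGACG, each on either strand.
Slit2: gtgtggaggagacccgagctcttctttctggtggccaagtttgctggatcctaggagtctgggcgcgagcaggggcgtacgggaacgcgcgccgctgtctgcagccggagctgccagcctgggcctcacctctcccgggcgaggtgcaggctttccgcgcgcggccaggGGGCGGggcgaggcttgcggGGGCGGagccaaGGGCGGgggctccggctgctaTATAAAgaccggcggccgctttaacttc
Sema5a: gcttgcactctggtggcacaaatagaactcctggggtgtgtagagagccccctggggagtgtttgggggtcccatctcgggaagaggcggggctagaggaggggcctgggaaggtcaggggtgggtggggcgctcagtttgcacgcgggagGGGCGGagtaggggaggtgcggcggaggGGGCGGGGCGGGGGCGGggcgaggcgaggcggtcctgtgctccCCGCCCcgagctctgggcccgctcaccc
Unc5c: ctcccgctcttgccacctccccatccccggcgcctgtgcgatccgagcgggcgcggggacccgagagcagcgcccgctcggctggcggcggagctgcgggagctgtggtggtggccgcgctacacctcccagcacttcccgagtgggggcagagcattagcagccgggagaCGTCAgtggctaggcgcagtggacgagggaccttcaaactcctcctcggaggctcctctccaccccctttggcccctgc
Slit2 has 1 TATAAA match, whose first base lies 28 bases before the start, and 3 GC box matches. Sema5a has 5 GC box matches and Unc5c has none, and Unc5c alone of the 3 has the TGACG core, once, on the reverse strand. The GC content was 69.6% for Slit2, 72% for Sema5a and 71.2% for Unc5c, and the median of all such windows was 52.4%. Over the members, 32 of 41 genes had an entry, with 39 windows in all. TATAAA was found in 2 of the 39 windows, for Slit2 and Efnb2, and in 12.4% of all 32851 windows. TGACG was found in 5 of the 39 windows, for Crmp1, Efnb1, Efnb2, Epha4 and Unc5c, and in 17.8% of all windows. The full element TGACGTCA, which contains that core, was found in 0 of the 39 windows and in 1.55% of all windows. GGGCGG was found in 32 of the 39 windows, for 26 genes, and in 32.7% of all windows. These letters are G and C alone, and the GC content of the 39 windows as a set was not computed. The part of base composition in this difference was not tested. TGANTCA, the AP-1 site, was found in 1 of the 39 windows, for Sema6b, and in 6.75% of all windows. These are matches of letters, and no window was tested for a factor.

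Slits are large secreted proteins that repel axons and neurons. Slit2 had a log2 ratio of 0.71 on replicate 2, 1.02 on replicate 3 and 0.84 on replicate 4, and 0.059 on replicate 1. The 3 arrays with null RNA in Cy5 lay close together, and replicate 1 lay near 0 whichever way it is turned. Among all probes of each array, Slit2 stood at percentiles of 97.5, 95.6 and 98.5 on replicates 2 to 4 and 56.5 on replicate 1. Its mean of 0.86 is 1.81-fold in size, with a 95% interval of 0.49 to 1.22. It ranked 8 of 5720 probes by p, with an unadjusted p of 0.00129 and an adjusted p of 0.450 from limma. Without replicate 2, 3 or 4 in turn, Slit2 stayed among the members at an unadjusted p under 0.05. With a dye term on 4 arrays its mean was 0.40, less than 0.5 of the size, at an unadjusted limma p of 0.0356. All fits with a dye term take replicate 1 as turned.

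The other Slits had no such mean. Slit1, which acts with Slit2 on cortical axon tracts, had -0.42, 0.11 and 0.42 on replicates 2 to 4 and -0.60 on replicate 1, so that the arrays took both signs. Slit3 had -0.21, -0.037 and 0.21 on replicates 2 to 4 and 0.063 on replicate 1. Their means were 0.037 ± 0.43 and -0.011 ± 0.21 (SD, n = 3), both smaller than the spread between arrays. Robo1, a Slit receptor of the cortex and the only Robo among the members, had 0.061, -0.36 and 0.15 on replicates 2 to 4 and 0.21 on replicate 1, with a mean of -0.047 ± 0.27 (SD, n = 3). The interval for Robo1 was -0.46 to 0.36. Slit2 was thus the only one of these 4 genes with a single sign on replicates 2 to 4. That Slit2 differs from Slit1, Slit3 or Robo1 was not tested.

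Among the semaphorins, Sema5a was the only one of 6 genes at an unadjusted p under 0.05. Sema5a is a membrane protein with thrombospondin repeats that can attract or repel axons, and plexin-B3 is one of its receptors. It had 0.94 on replicate 2, 1.29 on replicate 3 and 0.55 on replicate 4, and 0.22 on replicate 1. All 4 deposited values were positive, with replicate 1 the lowest. The percentiles were 99.0, 97.9 and 94.7 on replicates 2 to 4 and 74.8 on replicate 1. The mean of 0.93 is 1.90-fold in size, with an interval of 0.47 to 1.38. Its unadjusted p was 0.00283 and its adjusted p 0.450 with limma, at rank 28 of all probes. With a dye term on 4 arrays the mean was 0.35 and the unadjusted limma p 0.108. Plxnb3, the gene of plexin-B3, had 0.24, 0.73 and -0.13 on replicates 2 to 4 and -0.068 on replicate 1. It averaged 0.28 ± 0.43 (SD, n = 3), with the arrays on both sides of 0.

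The closest relative of Sema5a, Sema5b, did not share that pattern. Sema5b had -0.62, 0.17 and -0.18 on replicates 2 to 4 and 1.48 on replicate 1. Replicate 1 lay farthest from 0, at a percentile of 99.4 on its array. The class 6 semaphorins are membrane proteins that bind A-type plexins. Sema6b had -0.93, 0.12 and -0.26 on replicates 2 to 4 and -0.59 on replicate 1. Sema6a, a cue of thalamocortical and corticospinal axons, had -0.49, -0.49 and 0.15 on replicates 2 to 4 and -0.42 on replicate 1. For both genes 1 of the 3 arrays with null RNA in Cy5 went against the others, replicate 3 for Sema6b and replicate 4 for Sema6a. Their means were -0.36 ± 0.53 and -0.28 ± 0.37 (SD, n = 3). Sema6c and the class 4 semaphorin Sema4b completed the family, and with Sema5b their means ran from -0.21 for Sema5b to 0.20 for Sema4b, with unadjusted p from 0.276 to 0.820 in limma. No secreted class 3 semaphorin was among the members.

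**Figure D1:**
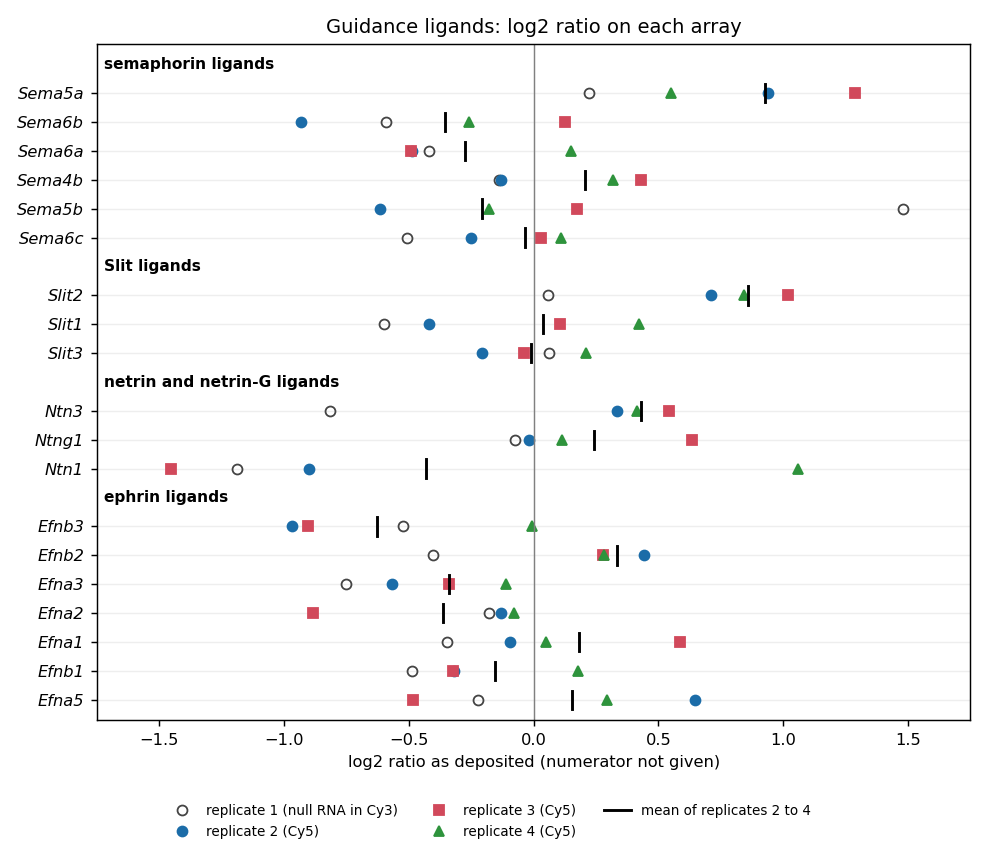
Log2 ratio as deposited (x axis) of each of the 19 guidance ligands (rows, by family) on each array. Open circles are replicate 1 (null RNA in Cy3), filled symbols are replicates 2 to 4 (null RNA in Cy5), and the black bar is the mean of replicates 2 to 4. Sema5a and Slit2 have their filled symbols between 0.55 and 1.29, and Ntn1 has filled symbols from -1.45 to 1.06.

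The plexins are the signalling receptors of semaphorins, and Nrp1 is the co-receptor for secreted semaphorins and for VEGF. None of these 6 genes reached an unadjusted p under 0.05. Plxna3 had 0.25, 0.46 and 0.34 on replicates 2 to 4 and -0.36 on replicate 1. It averaged 0.35 ± 0.10 (SD, n = 3), with an interval of -0.00068 to 0.70 and an unadjusted p of 0.0503 in limma. Its values on the Cy5 arrays were close together, and replicate 1 had the opposite sign as deposited and much the same size. Plxna1 had -0.67, -0.48 and -0.027 on replicates 2 to 4 and -0.84 on replicate 1, the lowest deposited value of all 4. Its mean was -0.39 ± 0.33 (SD, n = 3), with an unadjusted p of 0.0716 in limma. Plxna3 and Plxna1 thus lay on opposite sides of 0 on each of replicates 2 to 4, but Plxna1 was near 0 on replicate 4, at a percentile of 45.2. Plxna2 and Plxnc1, a receptor of Sema7a, had means of 0.0082 and 0.078, and Nrp1 had -0.025, each with arrays on both sides of 0. On replicate 1 all 6 genes had deposited values below 0, against 49.8% of all probes on that array. On each of replicates 2 to 4 these genes took both signs.

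CRMP proteins bind tubulin and carry semaphorin signals to microtubules, and they mark young postmitotic neurons. Dpysl5, which encodes CRMP5, had -0.23, -0.27 and -0.23 on replicates 2 to 4 and -0.35 on replicate 1. Its SD of 0.028 was the smallest of all members, around a mean of -0.24 with an interval of -0.58 to 0.097. Limma moderates the variance of each probe towards that of all probes, so that this small SD did not give a small p. The unadjusted p was 0.130. Dpysl4 had -0.47, -0.36 and -0.18 on replicates 2 to 4 and 0.16 on replicate 1, with a mean of -0.34 ± 0.15 (SD, n = 3) and, from limma, an unadjusted p of 0.0609. Dpysl3 had -0.28, -0.33 and 0.043 on replicates 2 to 4 and 0.019 on replicate 1. Dpysl2, the founding member of the family and a partner of tubulin, and Crmp1 had means of -0.17 and 0.048. In all, 4 of the 5 means were negative, against 2672 of all 5051 named genes. The median of the family was -0.23, -0.33 and -0.18 on replicates 2 to 4 and 0.019 on replicate 1. None of the 5 reached an unadjusted p under 0.05.

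Of the netrin receptors, Unc5c had a positive mean and Dcc a negative one, and Unc5c was at an unadjusted p under 0.05. Unc5c, a receptor of netrin repulsion, had 1.00 on replicate 2, 0.96 on replicate 3 and 0.37 on replicate 4, and -0.51 on replicate 1. All 3 arrays with null RNA in Cy5 were positive, at percentiles of 99.2, 94.9 and 88.2, while the deposited value of replicate 1 was negative. The mean of 0.78 ± 0.35 (SD, n = 3) is 1.71-fold in size, with an interval of 0.33 to 1.23. The unadjusted p was 0.00577 and the adjusted p 0.454 with limma. With replicate 1 turned, all 4 arrays had a positive value for Unc5c and the unadjusted p over 4 arrays was 0.00281. With replicate 1 as deposited, the mean over 4 arrays was 0.45 and the unadjusted limma p 0.117.

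Dcc, the receptor of netrin attraction, had -0.052, -0.57 and -0.53 on replicates 2 to 4 and -0.42 on replicate 1. Its deposited values were negative on all 4 arrays, and its mean was -0.38 ± 0.29 (SD, n = 3) with an interval of -0.80 to 0.033. On each of replicates 2 to 4 Unc5c was above 0 and Dcc below it, but Dcc was near 0 on replicate 2, at a percentile of 47.7. With a dye term on 4 arrays the mean of Dcc was 0.017. Whether the ratios of Unc5c and Dcc differ was not tested.

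Ntn1, the founding netrin, had -0.90, -1.45 and 1.06 on replicates 2 to 4 and -1.19 on replicate 1. Each of these is beyond 0.9 in size, at percentiles of 2.56, 1.52 and 99.4 on replicates 2 to 4 and 1.69 on replicate 1. Its SD of 1.32 on replicates 2 to 4 was the largest of all members, and its mean of -0.43 is smaller than that spread, with an interval of -1.60 to 0.73. Without replicate 4, Ntn1 was among the members at an unadjusted p under 0.05, and without replicate 3 its mean was 0.079. Ntn3, a related netrin that also binds Dcc and Unc5 receptors, had 0.33, 0.54 and 0.41 on replicates 2 to 4 and -0.81 on replicate 1. Its arrays with null RNA in Cy5 agree in sign and nearly in size, with a mean of 0.43 ± 0.11 (SD, n = 3) and an interval of 0.080 to 0.78. The limma p was 0.0241 unadjusted and 0.473 adjusted. Leaving out replicate 2, 3 or 4 raised the unadjusted limma p of Ntn3 to 0.0899, 0.0625 and 0.0779, and with replicate 1 as deposited its mean over 4 arrays was 0.12, with a p of 0.626 from limma. Ntng1, a membrane-anchored netrin-G of thalamic axons that does not act through Dcc, had -0.019, 0.63 and 0.11 on replicates 2 to 4 and -0.075 on replicate 1.

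**Figure D2:**
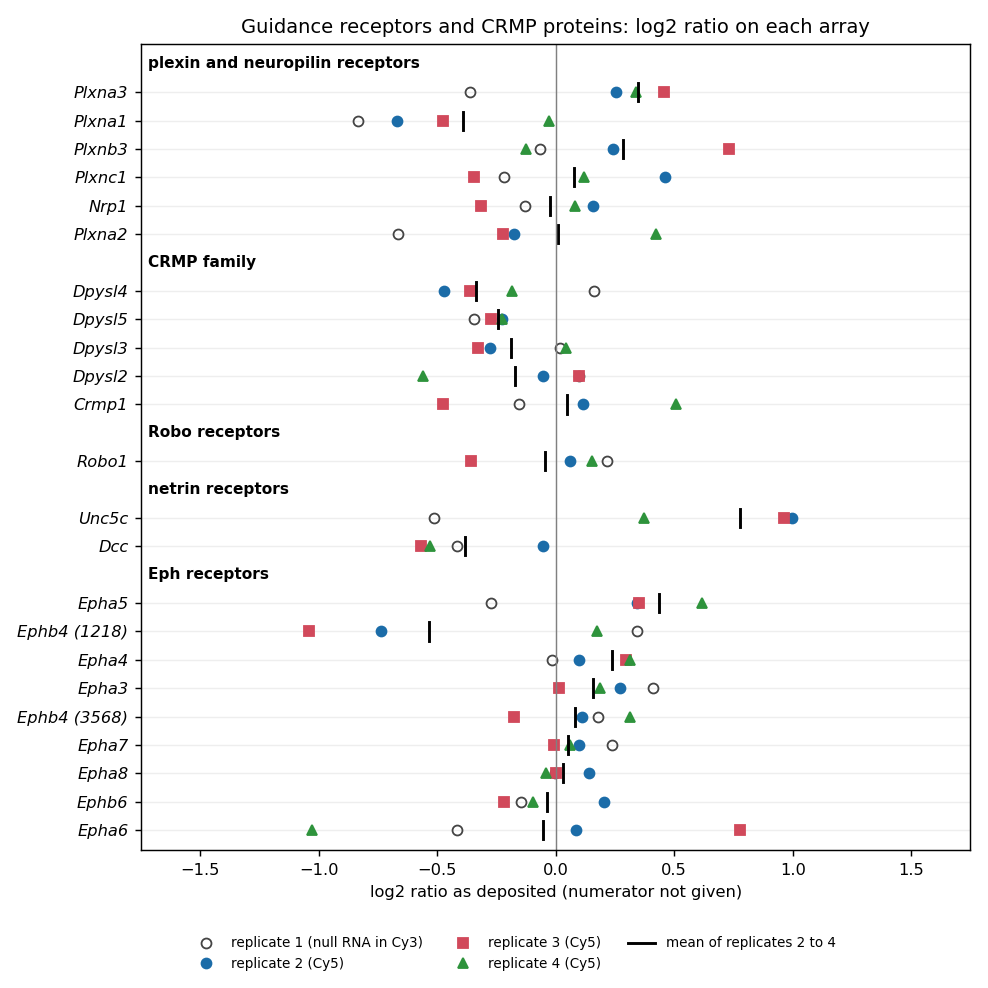
Log2 ratio as deposited (x axis) of each receptor and CRMP probe (rows, by family) on each array. Symbols are as for the ligands: open circles for replicate 1 (null RNA in Cy3), filled symbols for replicates 2 to 4 (null RNA in Cy5), black bars for the mean of replicates 2 to 4. Unc5c has filled symbols at 0.37 to 1.00 and Dcc at -0.57 to -0.052, and the 2 probes of Ephb4 differ.

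Ephrins of the A type are anchored to the membrane by lipid and those of the B type span it. Efnb3, an ephrin-B of the midline and of corticospinal guidance, had -0.97 on replicate 2, -0.90 on replicate 3 and -0.0074 on replicate 4, and -0.52 on replicate 1. All deposited values were negative, but replicate 4 was near 0, at a percentile of 48.2, against 2.11 and 4.07 on replicates 2 and 3. The mean of -0.63 ± 0.54 (SD, n = 3) is 1.54-fold in size, with an interval of -1.19 to -0.061, an unadjusted p of 0.0352 and an adjusted p of 0.486 from limma. Over 4 arrays with replicate 1 turned the mean was -0.34 with an unadjusted limma p of 0.249, and with a dye term it was -0.052 with a p of 0.828. Without replicate 2 the mean of Efnb3 was -0.46 and the unadjusted limma p 0.185, and without replicate 3 they were -0.49 and 0.125. Efnb2, which also marks arteries, had 0.44, 0.28 and 0.28 on replicates 2 to 4 and -0.40 on replicate 1. It averaged 0.33 ± 0.094 (SD, n = 3), of the opposite sign to Efnb3 on replicates 2 to 4, with an unadjusted p of 0.0568 in limma. Efnb1 had a mean of -0.16 with both signs among the arrays.

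Among the A-type ephrins, Efna3 had -0.57, -0.34 and -0.11 on replicates 2 to 4 and -0.75 on replicate 1. Its deposited values were negative on all 4 arrays, with a mean of -0.34 ± 0.23 (SD, n = 3) and an unadjusted p of 0.0773 from limma. Efna2 was also negative on all 4, with a mean of -0.36 that rested on -0.88 on replicate 3, against -0.13 on replicate 2 and -0.079 on replicate 4. Efna1 and Efna5, a repellent of cortical and thalamic maps, had means of 0.18 and 0.15 with both signs among the arrays. On replicate 1 all 7 ephrins had deposited values below 0, from -0.75 for Efna3 to -0.18 for Efna2, against 49.8% of all probes on that array. On each of replicates 2 to 4 the ephrins took both signs.

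Eph receptors are receptor tyrosine kinases. Epha5, a receptor of A-type ephrins in cortex and hippocampus, had 0.34 on replicate 2, 0.35 on replicate 3 and 0.62 on replicate 4, and -0.27 on replicate 1. The 3 arrays with null RNA in Cy5 were all positive, and the deposited value of replicate 1 was negative. The mean of 0.44 ± 0.16 (SD, n = 3) is 1.35-fold in size, with an interval of 0.074 to 0.80, an unadjusted p of 0.0260 and an adjusted p of 0.473 from limma. The unadjusted limma p of Epha5 was 0.0935 without replicate 2, 0.133 without replicate 4 and 0.0533 with a dye term. With replicate 1 as deposited, the mean of Epha5 over 4 arrays was 0.26 and the p 0.172 from limma. Epha4, which binds ephrins of both types, had 0.099, 0.30 and 0.31 on replicates 2 to 4 and -0.018 on replicate 1. Its mean of 0.24 ± 0.12 (SD, n = 3) had an unadjusted p of 0.152 in limma. Epha3 was positive on all 4 arrays as deposited, with a mean of 0.16. Epha7 and Epha8 lay within 0.14 of 0 on each of replicates 2 to 4, at means of 0.050 and 0.033.

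Epha6 had 0.087, 0.78 and -1.03 on replicates 2 to 4 and -0.41 on replicate 1, and its SD of 0.91 left a mean of -0.055. Of the 6 EphA genes 5 had a positive mean, with a median of 0.10. The ephrin-A genes had a median of -0.093, with 2 of 4 positive. Of all 5051 named genes 2379 had a positive mean. Ephb6, whose kinase domain is inactive, had a mean of -0.036. Ephb4, known from veins, was measured by 2 probes that disagreed. The probe with the ID 1218 had -0.74, -1.04 and 0.17 on replicates 2 to 4 and 0.34 on replicate 1, and the probe 3568 had 0.11, -0.17 and 0.31 on replicates 2 to 4 and 0.18 on replicate 1. They took opposite signs on replicate 2, and their means were -0.54 ± 0.63 and 0.082 ± 0.24 (SD, n = 3). No statement on Ephb4 can rest on either alone.

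**Figure D3:**
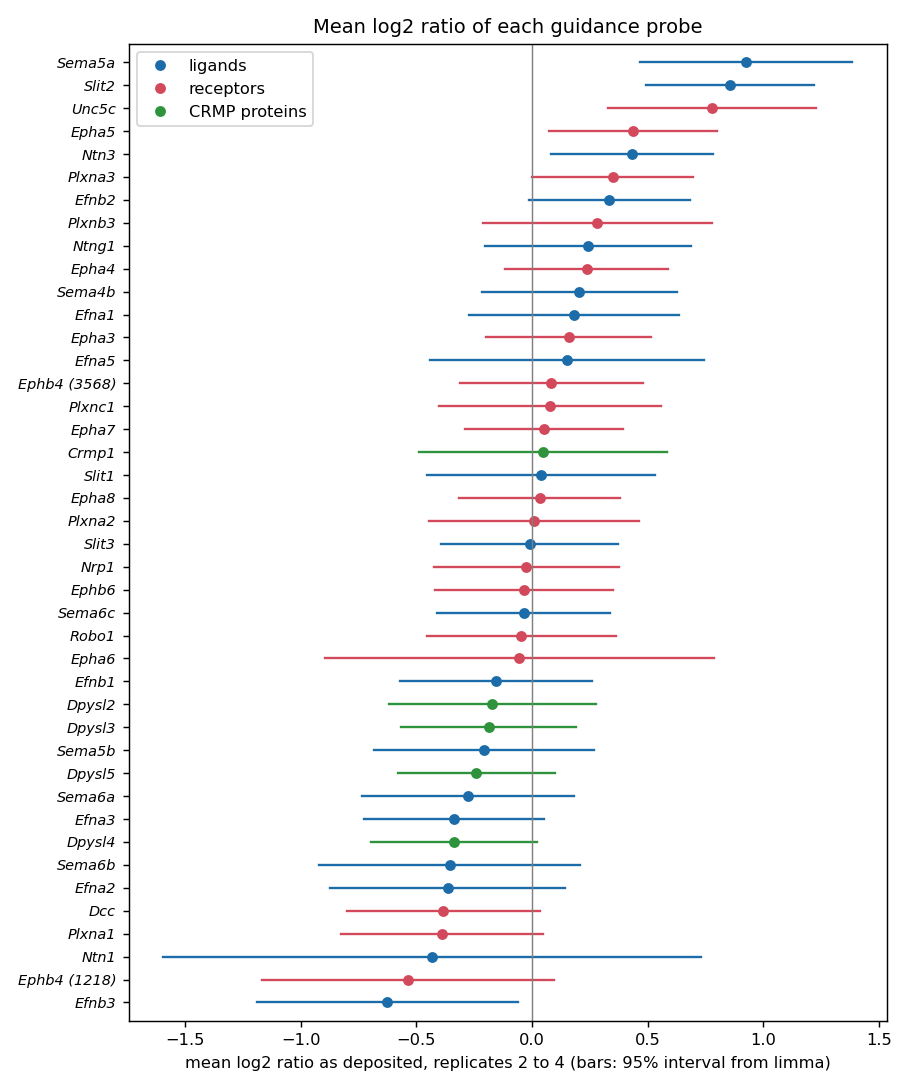
Mean log2 ratio as deposited over replicates 2 to 4 for each of the 42 guidance probes (points), with its 95% interval from limma (bars), ordered by the mean. Blue marks ligands, red receptors and green CRMP proteins. The intervals of 6 probes exclude 0 before adjustment, Sema5a, Slit2, Unc5c, Epha5 and Ntn3 above it and Efnb3 below it.

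Across the members the median log2 ratio on replicates 2 to 4 was -0.011, and over all 5051 named genes with values there it was -0.019. The means ran from -0.63 to 0.93, with 20 of 41 genes positive, against 2379 of the 5051 named genes. The 19 ligands had a median of -0.011, with 9 positive, and the 17 receptors a median of 0.033, with 10 positive. A single sign on all of replicates 2 to 4 was seen for 16 of the 42 probes, or 38.1%, against 33.5% of all probes. Of these, 9 were positive, or 21.4% against 16.3% of all probes, and 7 negative, or 16.7% against 17.3%. A mean beyond 0.5 in size was seen for 5 probes, or 11.9%, against 8.72% of all probes. These shares lay near those of the array as a whole.

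The median SD over replicates 2 to 4 was 0.29 for the members and 0.27 for all probes. The 95% interval of the median member reached 0.42 to either side of its mean, against 0.41 over all probes. For 36 of the 42 probes the interval lay within a 2-fold difference either way, the exceptions being Sema5a, Slit2, Unc5c, Efnb3, Ntn1 and the probe 1218 of Ephb4. As a check of the steps, changes were planted in simulated data of 5720 probes, at 200 probes in each of 20 rounds. Those of 2-fold were recovered in 53.8% of cases and those of 4-fold in 95.4%. The real arrays share 1 pool, and dye and genotype go together on replicates 2 to 4. Their precision weights were unequal, at 2.53, 0.48 and 0.83. Whether the simulated noise is like theirs was not tested, so the percentages do not give the share of true changes found here.

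**Figure D4:**
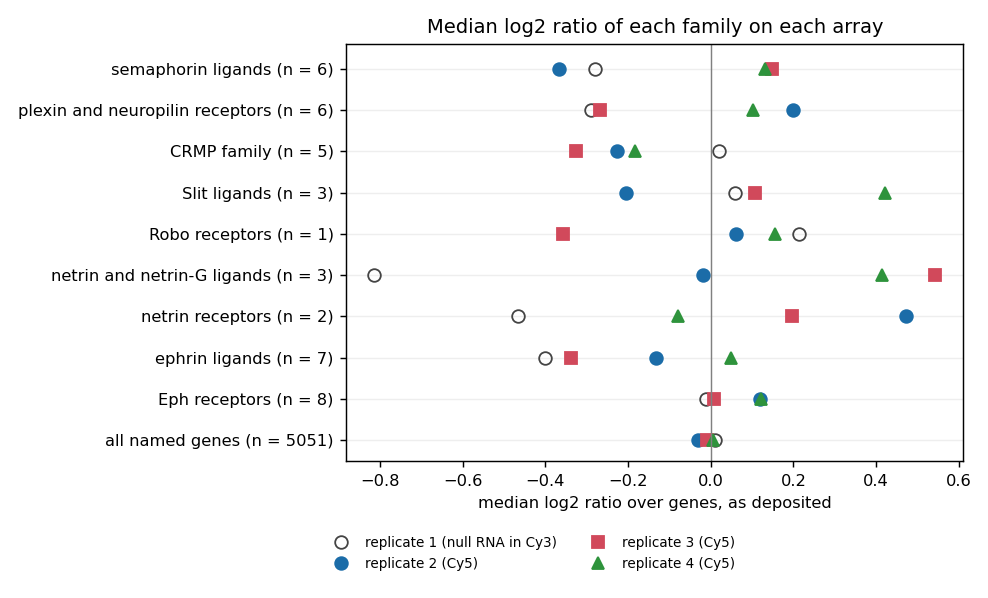
Median log2 ratio as deposited (x axis) over the genes of each family (rows, n genes) on each array, with the median over all named genes in the bottom row. Open circles are replicate 1 (null RNA in Cy3) and filled symbols replicates 2 to 4 (null RNA in Cy5). The families spread from -0.81 to 0.54, while the medians of all named genes lie between -0.030 and 0.010.

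The arrays differed in which side of 0 the members took. On replicate 1, 30 of the 42 probes, or 71.4%, had a deposited value below 0, against 49.8% of all probes on that array. On replicate 4 it was 14 probes, or 33.3%, against 49.3% of all probes. On replicates 2 and 3 it was 22 probes each, or 52.4%, against 54.1% and 50.3% of all probes. Replicate 2 correlated over the member probes with replicate 3 at a Pearson's r of 0.62 and with replicate 4 at 0.23, and the r of replicate 3 with replicate 4 was 0.019. Over the 5687 probes measured on all arrays these were 0.24, 0.23 and -0.0022. The r of replicate 1 over the members was 0.16 with replicate 2, 0.18 with replicate 3 and -0.16 with replicate 4, against -0.020, 0.077 and -0.12 over all probes. These correlations are across probes of arrays that share a control pool, and genes are not independent replicates.

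Which members kept a single sign on 4 arrays depends on the sign given to replicate 1. With replicate 1 turned, these were 7 probes, 16.7% of members against 18.1% of all probes, namely Plxna3, Ntn3, Unc5c, Efnb2, Epha5 and Epha4 on the positive side and Dpysl4 on the negative side. With replicate 1 as deposited, these were 9 probes, 21.4% of members against 15.5% of all probes. Sema5a, Slit2 and Epha3 were then positive, and Plxna1, Dpysl5, Dcc, Efnb3, Efna3 and Efna2 negative. Slit2 and Sema5a had an unadjusted p under 0.05 in limma over 4 arrays in either case, and no other member did. With replicate 1 turned the members at that mark were 8, 19.0% against 8.44% of all probes, the others being Plxna3, Dpysl4, Ntn3, Unc5c, Efnb2 and Epha5. With replicate 1 as deposited they were 6, 14.3% against 7.12%, the others being Plxna1, Dcc, Efnb3 and Efna3. The counts past the adjusted threshold of limma were 0 of 42 members in both fits, against 0% of all probes in the fit that turned replicate 1 and 0.0352% in the other.

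Weighting the arrays by their precision gave 14 members at an unadjusted p under 0.05 on replicates 2 to 4, 33.3% against 18.7% of all probes, and 0 past the adjusted threshold, against 0.0524% of all probes. The genes beyond the 6 were Sema6b, Sema5b, Plxna1, Plxna3, Dpysl4, Efnb2, Efna3 and, by its probe 1218, Ephb4. A dye term on 4 arrays gave 6 members, 14.3% against 6.73% of all probes, namely Slit2, Unc5c, Ntn3, Efnb2, Plxna3 and Sema5b, and 0 past the adjusted threshold, against 0.0176% of all probes. Slit2 and Unc5c, with Ntn3, were thus at that mark on replicates 2 to 4, with weights and with the dye term, and Sema5a was not with the dye term. The dye term was fitted only with replicate 1 turned, so this holds for that sign of replicate 1. Only replicate 1 has null RNA in Cy3, so the estimates with a dye term lean on that single array. It had -0.81 for Ntn3 and 1.48 for Sema5b as deposited, and their means with the dye term were 0.62 and -0.84. With replicate 1 as deposited and no dye term, Slit2 and Sema5a were at the mark and Unc5c and Ntn3 were not. Without replicate 2, Sema5a, Slit2 and Unc5c were the 3 members left at the mark, and the share of all probes in that fit was not computed.

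**Figure D5:**
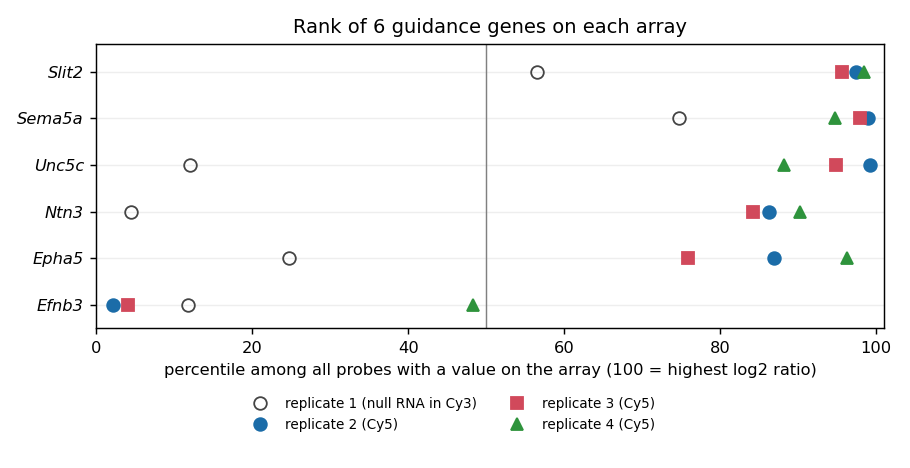
Percentile of 6 guidance genes among all probes with a value on each array (x axis, rising with the log2 ratio as deposited), for the genes with an unadjusted p under 0.05 on replicates 2 to 4. Open circles are replicate 1 and filled symbols replicates 2 to 4. Slit2 and Sema5a stand above the 94th percentile on replicates 2 to 4, and Efnb3 stands below the 5th on replicates 2 and 3 and near the middle on replicate 4.

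Of the genes that work beside these families, 42 of 69 listed effectors and co-receptors and 21 of 38 listed other cues and receptors had values on replicates 2 to 4. Among the effectors 3 had an unadjusted p under 0.05 in limma, or 7.14%, against 9.78% of all named genes. They were 2 positive and 1 negative, against 5.62% positive and 4.16% negative over all named genes. Vasp, which lengthens actin filaments, was negative at -0.77, -0.43 and -0.46 on replicates 2 to 4 and 0.17 on replicate 1. Chl1, an adhesion molecule that associates with Nrp1, was positive at 0.48, 0.30 and 0.61 and had -0.20 on replicate 1. Cfl2, an actin-severing cofilin, was positive at 0.35, 0.66 and 0.30 and had 0.40 on replicate 1. Each of these 3 genes had a single sign on replicates 2 to 4. Gsk3b, a kinase of CRMP proteins, had a mean of -0.36 ± 0.27 (SD, n = 3) and an unadjusted p of 0.0750 in limma.

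Among the other cues and receptors 3 of 21 genes were at that mark, or 14.3%, against 9.78% of all named genes. Again 2 were positive and 1 negative, against 5.62% positive and 4.16% negative over all named genes. Ptprd, a receptor phosphatase of the LAR type, had 0.72, 0.72 and 0.45 on replicates 2 to 4 and 0.33 on replicate 1 at 1 of its 3 probes, whose means ran from 0.26 to 0.63. Lrig1, a membrane inhibitor of growth factor receptors, had a mean of 0.52 ± 0.15, and Gas1, a co-receptor of Sonic hedgehog, had -0.46 ± 0.29 (SD, n = 3). Omg, a myelin-associated inhibitor of axon growth, had 0.71 ± 0.77 and missed the mark in limma at 0.0568. The adjusted p was at least 0.454 for all genes of both lists. The medians were -0.020 for the effectors and 0.035 for the other cues, near that of all named genes.

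Markers of the cells the tissue could hold were measured as ratios only, so that their presence or absence cannot be read from these arrays. Medians, means and marks of these lists are of replicates 2 to 4 unless replicate 1 is named. Of 16 neocortex markers 13 had values, with a median of -0.16, and Emx1, Cux1 and Neurod2 were at an unadjusted p under 0.05 in limma, all negative. That is 23.1% of them, against 9.78% of all named genes. Of 20 vessel markers 15 had values, with a median of -0.31 and 6, or 40%, at that mark. Sox17, Sox18, Cdh5, Tie1 and Abcb1a were negative and Tal1 was positive. Tal1 had 0.53, 0.63 and 1.04 on replicates 2 to 4 but -4.06 on replicate 1 as deposited, and Sox17 had 0.26 on replicate 1. Of 15 microglia and leukocyte markers 11 had values, with a median of 0.53 and 5, or 45.5%, at that mark, Lyz1, Lyz2, Laptm5, Ctss and Tyrobp, all positive. By array the median of this list was 0.38, 0.30 and 0.35 on replicates 2 to 4, and -0.063 on replicate 1 as deposited. Lyz1 had 0.81 and Laptm5 -0.29 on replicate 1, so these 2 genes differ in sign there whichever way it is turned. The medians on replicate 1 as deposited were 0.020 for neocortex and -0.15 for vessels. Of the meninges and mesenchyme markers 4 of 14 were at that mark, or 28.6%, 1 positive and 3 negative. Ptgds had a mean of -1.36 ± 0.62 and Col6a1 of -2.20 ± 1.46 (SD, n = 3), and the others were Col5a1 and Foxc1, 1 of each sign. The mean of Col6a1 rested on -3.23 and -2.85 on replicates 2 and 3, against -0.53 on replicate 4, and replicate 1 had -0.31. Of the choroid plexus markers 3 of 5 were at the mark, or 60%, 2 positive and 1 negative. Cldn2 at 1.27 and Kl at 0.62 were positive, and Ttr was negative. Of the red blood cell markers it was 2 of 6, or 33.3%, Hba-x at -0.74 and Slc4a1 at -0.49. Of the striatum markers it was 3 of 13, or 23.1%, 1 positive and 2 negative, and of the diencephalon markers 1 of 10, or 10%, Tcf7l2 at -0.43. The medians of these lists were -0.11 for meninges and mesenchyme, 0.064 for choroid plexus, -0.14 for red blood cells, -0.19 for striatum and -0.24 for diencephalon. The part of these cell types in the ratios of the guidance genes, among them Efnb2 and Ephb4 of vessels, was not tested.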

How the data were processed

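RNA was measured on 4 two-colour arrays of null neocortex against 1 control pool, per the labels. The deposited values are the authors' processed log ratios, taken as log2. They centre near 0 (column medians -0.031 to 0.0044) and reach 6.85 in size, which a scanner's range would not allow on a log10 scale. Their base, background correction, normalization and numerator are not given in sources used here. The SD over probes was 0.40 to 0.63 per array, with 5777 to 5873 of 6856 probes measured. Signal over background is unknown, and the number of arrays limits the precision. The mutated gene is not reported here.

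Symbols came from the platform annotation (6269 probes with a single symbol, of which 6250 had an Entrez ID in RefSeq, with 0 symbols changed). The mean log2 ratio of replicates 2 to 4 was tested against 0, two-sided, in limma 3.58.1 (lmFit, then eBayes; R 4.3.3), over all 5720 probes with a value on each. P-values were adjusted by Benjamini-Hochberg over all of these. Intervals are 95% intervals of that fit. The members and lists were chosen with earlier results of these data known. Values on every array are given for members with an unadjusted p under 0.05 and for up to 3 per family with the smallest p. A further few members were given the same way after their values were seen. List genes were named if under 0.05, otherwise up to 4 with the smallest p, and the marker genes beyond 2 per list were named after their values were seen. The probe with the smallest p stands for a gene, and medians average its probes. The steps were tested on simulated data (20 rounds, 200 changed probes, 4.11% of calls false). Alternatives on 4 arrays were replicate 1 turned, as deposited, or turned with a dye term. Those on replicates 2 to 4 were array weights, centring, a common scale, probes with missing values and averaging by gene. Robust variances, an adjusted p of 0.1 and each replicate left out were run as well.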

Additional observations from a re-analysis of the deposited data

Results flagged for a closer look

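A sample far from the others of its group was looked for over the 4 arrays of each member probe, with replicate 1 both as deposited and turned, as a gap to the nearest array past Dixon's 95% critical value. Chance flags about 1 in 20 groups, and 5 such values were found among 42 probes read both ways. With replicate 1 as deposited, Sema6a stood apart on replicate 4 at 0.15, Ntn3 on replicate 1 at -0.81 and Efna2 on replicate 3 at -0.88. With replicate 1 turned, Nrp1 stood apart on replicate 3 at -0.31 and Dpysl5 on replicate 1 at 0.35.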

How the results depend on the processing

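Under each alternative run, 0 of the 42 members passed the adjusted threshold of limma, also at an adjusted p of 0.1. The smallest limma adjusted p over all probes on replicates 2 to 4 was 0.079. At least 1 probe outside the members thus passed 0.1, and the share that did was not computed. The number of members at an unadjusted p under 0.05 was 6 on replicates 2 to 4. It was 14 with array weights, where 18.7% of all probes were at that mark, and 3 without replicate 2. Leaving out single replicates gave 3 to 7, and Slit2, Sema5a and Unc5c were among them each time. The share of all probes at the mark was not computed for the fits with a replicate left out. The median over the members, -0.011, was 0.15 with a dye term on 4 arrays and -0.079 to 0.048 when a replicate was left out. Of 288 values of 24 genes under alternatives, 269 kept their sign, and 14 genes kept it throughout. Robust variances and allowed missing values leave the means of these genes unchanged, as does averaging by gene for all but Ephb4. Those unchanged means could not change sign, and the other fits reuse the same arrays. The fit with a dye term takes replicate 1 as turned and leans on it, as the only array with null RNA in Cy3. With the dye term the opposite sign was taken by Sema6b (0.12), Sema6a (0.072), Plxna1 (0.22), Dpysl5 (0.052), Ntn1 (0.38), Dcc (0.017) and Efna3 (0.21). With replicate 1 as deposited it was taken by Slit1 (-0.12), Slit3 (0.0077) and Robo1 (0.018), with array weights by Slit1 (-0.17) and Robo1 (0.029), and with a common scale by Slit3 (0.015) and Robo1 (0.0085). When single replicates were left out, Slit1 ranged from -0.16 to 0.26, Slit3 from -0.12 to 0.087, Robo1 from -0.15 to 0.11 and Ntn1 from -1.18 without replicate 4 to 0.079 without replicate 3. Fewer arrays enter those fits; the cause of the other changes was not tested. Each ratio already sets null RNA and the pool side by side on the same array. No pairing beyond that was possible because each null sample was set against the same pool and the labels form a single group.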
